A study of Mus musculus with 6 samples.

Results

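Chromatin accessibility was described at 7 proneural genes of the basic helix-loop-helix (bHLH) family, Neurog1, Neurog2, Neurod1, Neurod2, Neurod4, Neurod6 and Atoh1. All peaks that overlapped the body of 1 of these genes, or the 50 kb on each side of it, were taken from 6 ATAC-seq peak lists and merged into regions wherever they shared at least 1 bp. This gave 68 regions of 119719 in the genome, around 7 of 21911 protein-coding genes. ATAC-seq uses a transposase that cuts and tags open DNA, and a peak is a stretch where the tags stand above the local background of the same library.

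Proneural bHLH factors are transcription factors that start neuronal differentiation. They bind DNA at short E-box motifs as dimers with ubiquitous E proteins. In many lineages the neurogenins and ATOH1 act first, in dividing progenitors, and switch on NeuroD factors, which act later in the same lineage. HES and HEY repressors, driven largely by Notch signalling, hold proneural genes down in stem cells, and ID proteins sequester the E proteins.

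The libraries came from neural stem cell cultures of the subependymal zone (SEZ) of mice aged 10 weeks, on a C57BL/6J background according to the methods of the study. Each culture was homozygous for a deletion, made with CRISPR-Cas9, of the Srr2 enhancer of Sox2 (Srr2 del/del). The states were compared within this mutant, without wild-type libraries, which are not analysed here. The 3 proliferating libraries (PROLIF, replicates 1, 2 and 4) were taken after 2 days in vitro on Matrigel with FGF. The 3 early differentiating libraries (DIFF, replicates 1, 2 and 4) were taken 1 day later, after mitogen withdrawal and a change to 2% fetal bovine serum. These times are those of the sample labels, whereas the design text of the series gives the proliferating samples as neurospheres at 3 days in vitro. The allele was kept as a pair of founder strains made with different guides, and the labels do not say which strain each culture came from. The study describes the samples as biological replicates.

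The lists held 59792 to 87728 peaks on assembled chromosomes. DIFF replicate 4 had the highest background pileup, 6.01 reads against 2.85 to 3.63 reads in the other libraries, so weaker peaks could pass in it. Strength was therefore compared by rank within each library. The percentile of a peak is the share of its own list with a weaker −log10 p. For the 40102 regions with a peak in all 6 libraries, the rank of a region by its best peak was turned into a normal score, on which 0 is the middle region of the library. Promoters, taken as 3 kb on either side of a start site, had a peak in all 6 libraries for 9 of 9 neural stem and progenitor markers and 5 of 7 neuronal markers, with no peak at Dcx. The same held for 2 of 4 markers of mature oligodendrocytes, 1 of 5 of microglia and 1 of 4 of endothelial cells. Ptprc, Cx3cr1, Cldn5 and Cdh5 had no peak in any library. Over all protein-coding genes, 64.4% had a promoter peak in all 6 libraries and 25.4% in none. Among these markers, 2 differed between the states. The endothelial marker Pecam1 had promoter peaks in the PROLIF lists (percentiles 51.6, 44.0 and 55.0) and in no DIFF list, as did 0.228% of protein-coding genes. The stem cell marker Nes, 1 of 9 tested in its list, scored lower in DIFF by limma (-1.38, adjusted p = 0.000971). Over all genes with a shared promoter region, 4.07% were lower and 9.96% higher. No other marker was called, so the count of calls is no result about the markers as a set. Their part in the falls at the 7 genes was not tested. In bulk cultures, fewer cells with an open site and a less open site in every cell cannot be told apart.

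Around the 7 genes, 26 of the 68 regions had a peak in all 6 libraries, which is 38.2%, beside 33.5% of all regions of the genome. Another 18 regions were seen in 1 library alone, 26.5% against 29.6% of all regions. Of the rest, 1 region was PROLIF-only (peaks in the 3 PROLIF lists and in no DIFF list) and 3 were DIFF-only (the converse), and 20 had other mixtures. PROLIF-only regions made up 1.79% of all regions and DIFF-only regions 3.48%. By position, 12 regions lay at the promoters of the 7 genes, 9 at promoters of other genes and 47 away from protein-coding start sites.

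**Figure D1:**
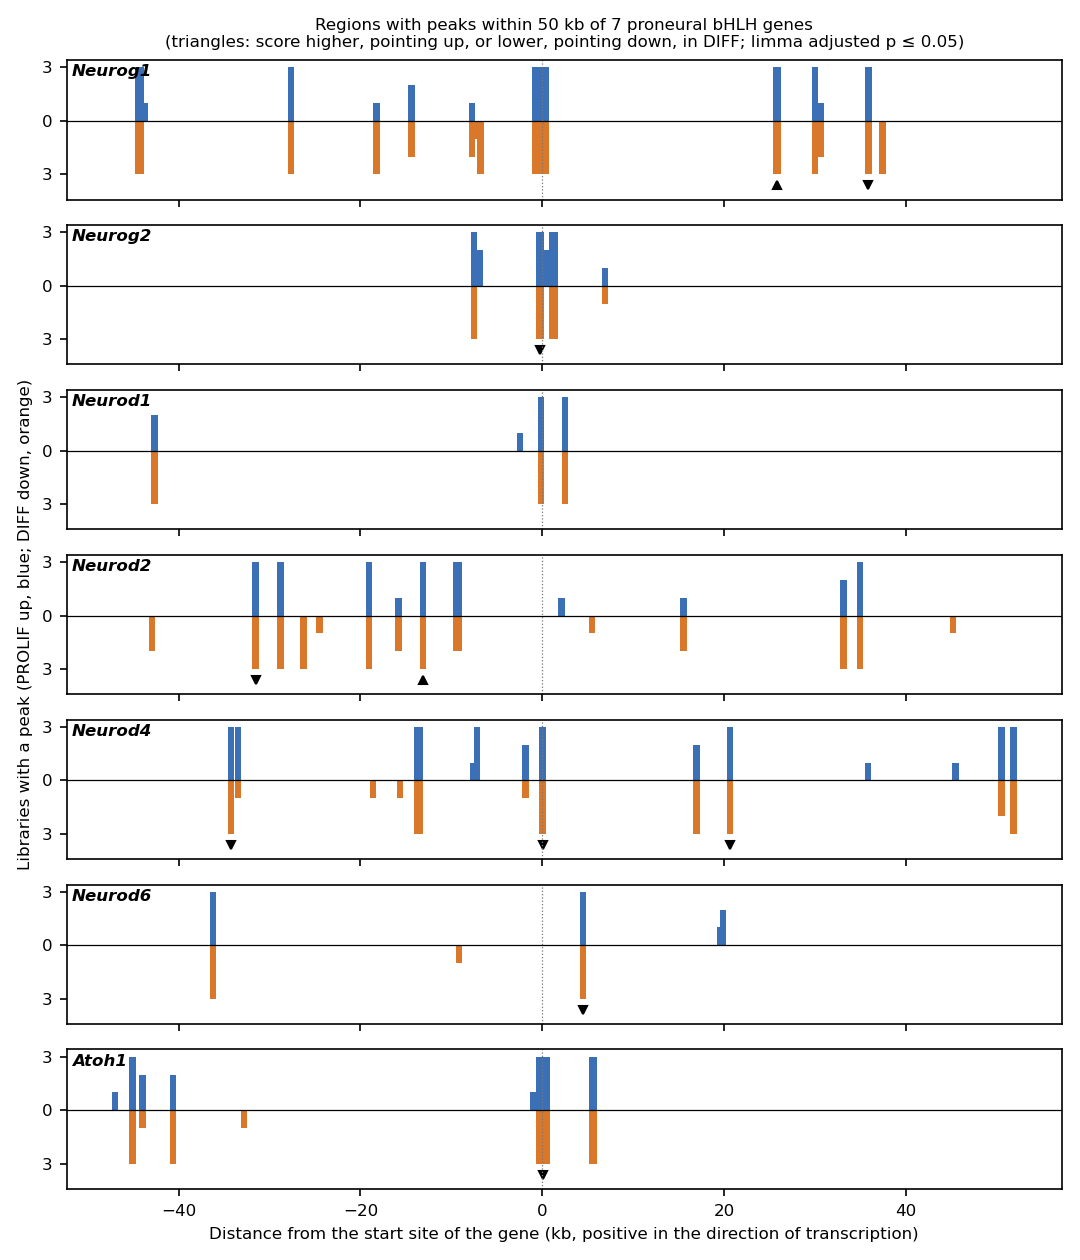
Regions with peaks around each gene, placed by distance from the start site of the gene (kb, positive in the direction of transcription). Bars give the number of libraries with a peak, PROLIF upwards in blue and DIFF downwards in orange, with narrow regions widened to be visible, and triangles mark the 10 regions whose score differed by limma at an adjusted p of 0.05. Neurod4 carries 3 downward triangles, and Neurod2 and Neurod6 have no bar on the start site.

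The windows of single genes ranged from 4 to 15 regions, beside a median of 9 over all protein-coding genes. Neurod2 and Neurod4 had 15 regions each, Neurog1 had 14, Atoh1 had 8, Neurog2 had 7, Neurod6 had 5 and Neurod1 had 4. Peaks in the 7 windows together numbered 50, 39 and 42 in PROLIF replicates 1, 2 and 4 and 40, 44 and 50 in DIFF replicates 1, 2 and 4. The states overlapped, at 43.7 ± 5.69 and 44.7 ± 5.03 peaks (SD, n = 3 per state; exact permutation test, two-sided, p = 0.8, where 3 against 3 cannot go below 0.1). In the Neurog1 window the lists held 11, 7 and 8 peaks in PROLIF and 10, 12 and 12 in DIFF. The Neurod4 window went the other way, with 10, 11 and 10 peaks in PROLIF and 7, 7 and 10 in DIFF. In none of the 7 windows was the exact permutation p below 0.2, without adjustment.

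**Figure D2:**
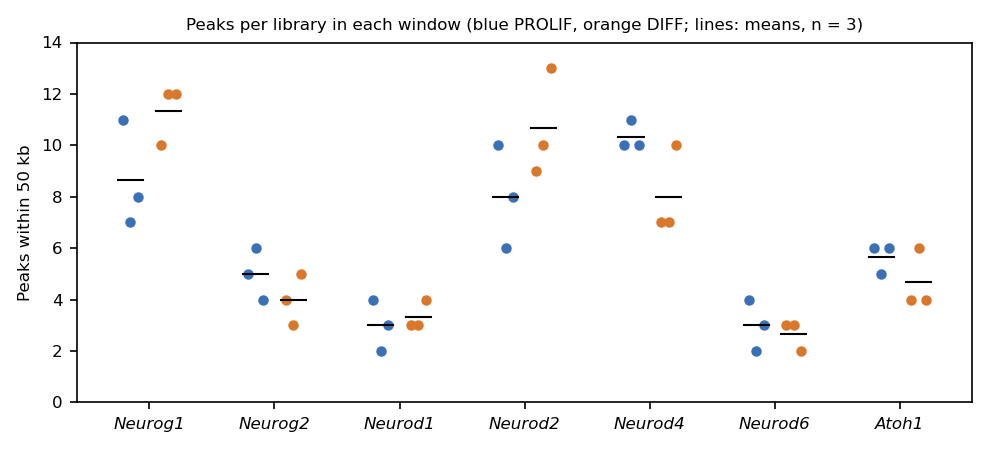
Number of peaks within 50 kb of each gene (y axis) in each library, PROLIF in blue and DIFF in orange, with lines at the means of 3 libraries. The states overlap or share a value in every window, and the Neurog1 and Neurod2 means are higher in DIFF (11.3 and 10.7 peaks against 8.67 and 8) while the Neurod4 mean is lower (8 against 10.3).

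Of the 26 shared regions, 2 scored higher and 8 scored lower in DIFF, by limma fitted over all 40102 shared regions with Benjamini-Hochberg adjustment to 0.05, and 16 passed in neither direction. The higher regions were 7.69% of the 26, beside 9.80% of all shared regions, and the lower regions 30.8%, beside 11.2%. Scores of the states did not overlap in 4 regions with DIFF higher and in 11 with DIFF lower, beside 20.3% and 17.8% of all shared regions. The median score difference, DIFF minus PROLIF, was -0.11 over the 26 and 0.05 over all shared regions. Only 4 of the 10 calls held in all 11 alternative fits that were run, namely 1 region downstream of Neurog1 and 3 regions at Neurod4, 1 of them on its start site. The other 6 were lost in 6 or 7 of the 11, and their differences kept their sign in all of them. Over the alternatives the difference ran from -1.24 to -0.65 at the Neurog1 region 35588 bp downstream, from -0.93 to -0.56 on the Neurog2 start site, from 0.83 to 1.37 and from -0.83 to -0.65 at the Neurod2 regions 12888 and 31110 bp upstream, from -0.95 to -0.63 at the Neurod6 region 4084 bp downstream and from -0.70 to -0.35 on the Atoh1 start site. With 1 library left out at a time, 3 to 5 regions were lower, with 3 when DIFF replicate 4 was absent, 5 when DIFF replicate 1 was absent and 4 when any other library was. With PROLIF replicate 1, DIFF replicate 1 or DIFF replicate 2 absent, 1 region was higher. The set of shared regions also changes with the libraries kept. Ranking by fold enrichment in place of −log10 p ended 3 of the 6, at the start sites of Neurog2 and Atoh1 and 12888 bp upstream of Neurod2.

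**Figure D3:**
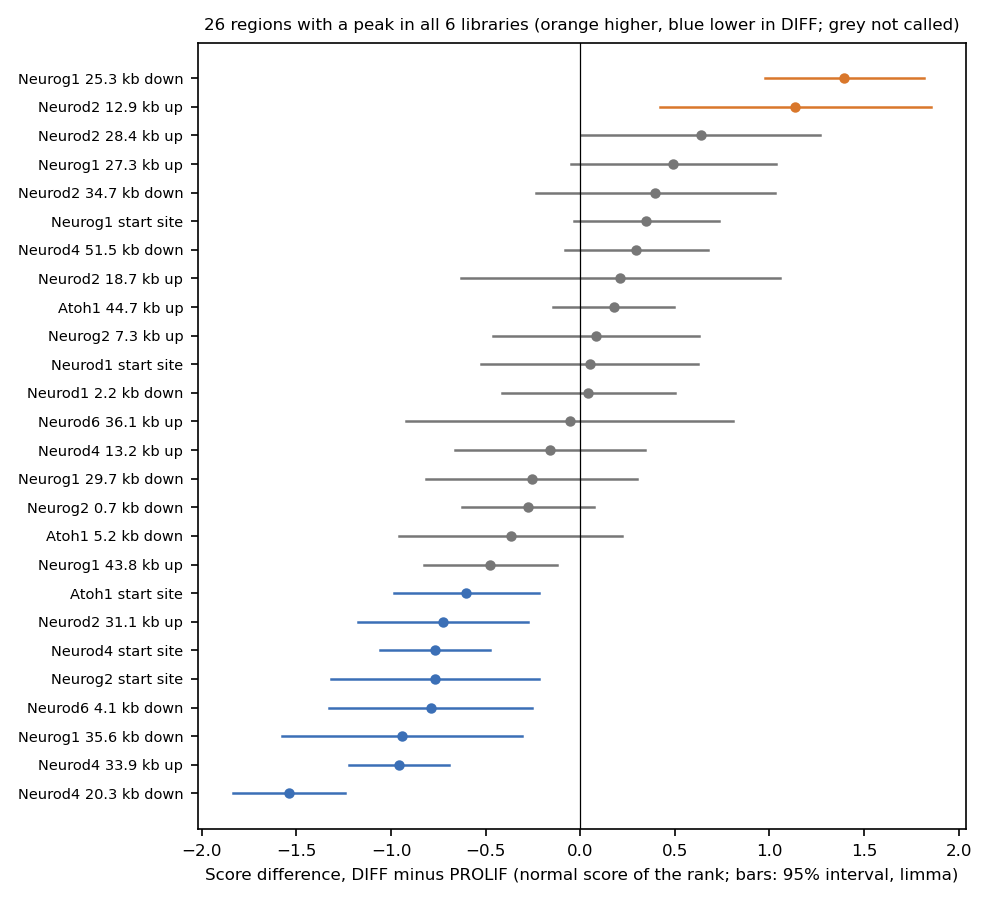
Score difference (DIFF minus PROLIF, x axis) of the 26 regions with a peak in all 6 libraries, with 95% intervals from limma, named by gene and by the distance of the nearer edge from its start site. Orange points were called higher and blue points lower in DIFF, and the Neurod4 region 20299 bp downstream has the lowest value, -1.54.

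**Figure D4:**
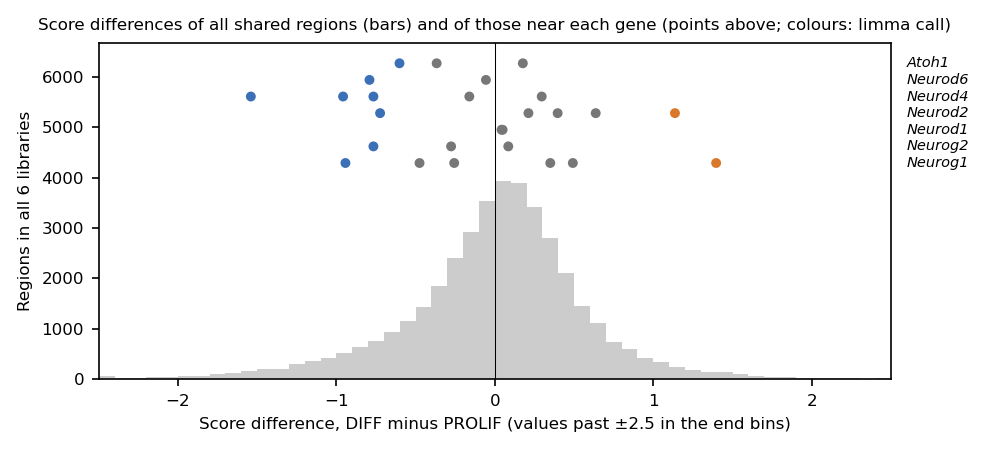
Histogram of the score differences of all 40102 shared regions (y axis, regions per bin), with the shared regions near each gene as points above it in a row per gene, orange where called higher, blue where called lower and grey where not called. The Neurod4 row has 3 blue points and the Neurod1 row none of either colour.

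Neurod4 encodes a NeuroD-family factor that acts in neuronal commitment. The gene (ENSMUSG00000048015.4) lies on the minus strand at chr10:130268152-130280240, and Tespa1 is the other protein-coding gene in its window. The region on its start site (chr10:130279864-130280573) was the strongest promoter region of the 7 genes in PROLIF. Its best peak stood 16.8, 11.9 and 11.5 fold over background in PROLIF replicates 1, 2 and 4 and 8.42, 10.1 and 9.02 fold in DIFF. The percentiles were 92.4, 88.4 and 84.6 in PROLIF and 73.5, 73.3 and 79.1 in DIFF, with no overlap of the states. The score fell by 0.77 (SE 0.14, limma adjusted p = 0.000965), and over the 11 alternatives the adjusted p ran from 6.89e-05 to 0.0139.

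The largest fall among the shared regions was in an intergenic region 20299 bp downstream of the Neurod4 start site, beyond the end of the gene (chr10:130259336-130259941). Its fold enrichment was 15.3, 15.2 and 16.7 in PROLIF replicates 1, 2 and 4, and 7.39, 7.66 and 8.39 in DIFF. All PROLIF libraries ranked it at percentile 95.1 or above, and all DIFF libraries at 78.9 or below. The mean fold enrichment was 15.7 ± 0.795 in PROLIF and 7.82 ± 0.518 in DIFF (SD, n = 3), and the score difference was -1.54 (SE 0.14, 95% interval -1.84 to -1.24, limma adjusted p = 3.09e-06). A further intergenic region, 33937 bp upstream (chr10:130314177-130314798), also scored lower. There the fold enrichment was 17.4, 12.7 and 14.7 in PROLIF and 10.4, 11.6 and 10.4 in DIFF, and the percentiles were 96.1, 92.5 and 94.0 against 80.4, 78.4 and 82.3. The difference was -0.96 (SE 0.12, limma adjusted p = 6.39e-05). This region is nearer to the start site of Tespa1 (8072 bp) than to that of Neurod4.

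The sequences at these sites are shown because they are the regions of the Neurod4 window with the firmest change. Each distal sequence is the 201 bases centred on the summit of the best-ranked peak, read from the plus strand of GRCm38, and the promoter sequence is the 250 bases before the upstream Neurod4 start site of RefSeq (GRCm38.p6), read on the minus strand. Capitals mark the E-box CAGATG, which reads CATCTG on the other strand, and the palindromic E-box CAGCTG.
Neurod4 downstream, chr10:130259619-130259819: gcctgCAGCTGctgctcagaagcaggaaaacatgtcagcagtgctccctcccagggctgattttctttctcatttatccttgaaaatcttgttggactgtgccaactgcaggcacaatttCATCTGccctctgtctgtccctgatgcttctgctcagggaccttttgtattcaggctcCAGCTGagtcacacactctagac
Neurod4 upstream, chr10:130314561-130314761: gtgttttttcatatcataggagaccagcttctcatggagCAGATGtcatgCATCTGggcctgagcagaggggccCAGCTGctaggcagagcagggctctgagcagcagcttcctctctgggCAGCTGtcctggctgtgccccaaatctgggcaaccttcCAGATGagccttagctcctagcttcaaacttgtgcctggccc
Neurod4 promoter, chr10:130280255-130280504: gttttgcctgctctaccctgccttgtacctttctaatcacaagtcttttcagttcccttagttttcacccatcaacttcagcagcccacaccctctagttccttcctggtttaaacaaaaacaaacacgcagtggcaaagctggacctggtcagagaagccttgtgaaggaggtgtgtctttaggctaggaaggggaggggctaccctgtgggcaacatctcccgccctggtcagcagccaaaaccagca

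The downstream window held 3 of these E-boxes and the upstream window held 5, while the promoter stretch held none. At least 1 was found in 23 of the 68 regions (33.8%), beside 33.4% of all regions of the genome. At least 2 were found in 7 of the 68 and in 7.48% of all regions. At least 3 were found in 4 of the 68 and in 1.34% of all regions, and at least 5 in 1 of the 68 and in 0.110%. The limits 3 and 5 are the counts of the windows printed above, so these last shares are no test. All 4 regions with 3 or more lay in the Neurod4 window. The remaining pair are weaker regions, 35677 bp downstream (a peak in PROLIF replicate 1 alone) and 15588 bp upstream (a peak in DIFF replicate 2 alone). These counts were made after the changes at the regions were known, and a match of letters is a description, not evidence of binding.

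A PROLIF-only region of the Neurod4 window lay 6967 bp upstream (chr10:130287207-130287667), with 4.03, 4.82 and 3.64 fold in the PROLIF lists. Not every Neurod4 region was weaker after mitogen withdrawal. By contrast a region 16693 bp downstream (chr10:130263076-130263547), picked out after its values were seen, had peaks of 3.30 and 2.98 fold in PROLIF replicates 1 and 2, none in PROLIF replicate 4, and 7.02, 7.58 and 6.59 fold in DIFF. It stood between percentiles 66.4 and 70.3 in DIFF and at 29.6 and 17.6 in PROLIF. Since 1 library lacks it, it was not tested in the fit over all 6 libraries. It entered the fit without PROLIF replicate 4, and its value there is not given here. The 2 other shared regions, 51543 bp downstream and 13167 bp upstream, differed by 0.30 (95% interval -0.08 to 0.67) and -0.16 (-0.66 to 0.34) and were not called. In the megabase interval of chromosome 10 that holds Neurod4, the lists held 22, 25 and 24 peaks in PROLIF and 16, 16 and 22 in DIFF. These counts include the peaks of the Neurod4 window itself, 10, 11 and 10 in PROLIF and 7, 7 and 10 in DIFF. As a share of each list these were 0.266, 0.376 and 0.401 per mille in PROLIF and 0.225, 0.227 and 0.251 per mille in DIFF, without overlap. How many other intervals of this size separate the states in the same way was not counted. The interval is thus not independent of the Neurod4 window, and whether the falls at single Neurod4 regions are part of a wider difference was not tested.

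**Figure D5:**
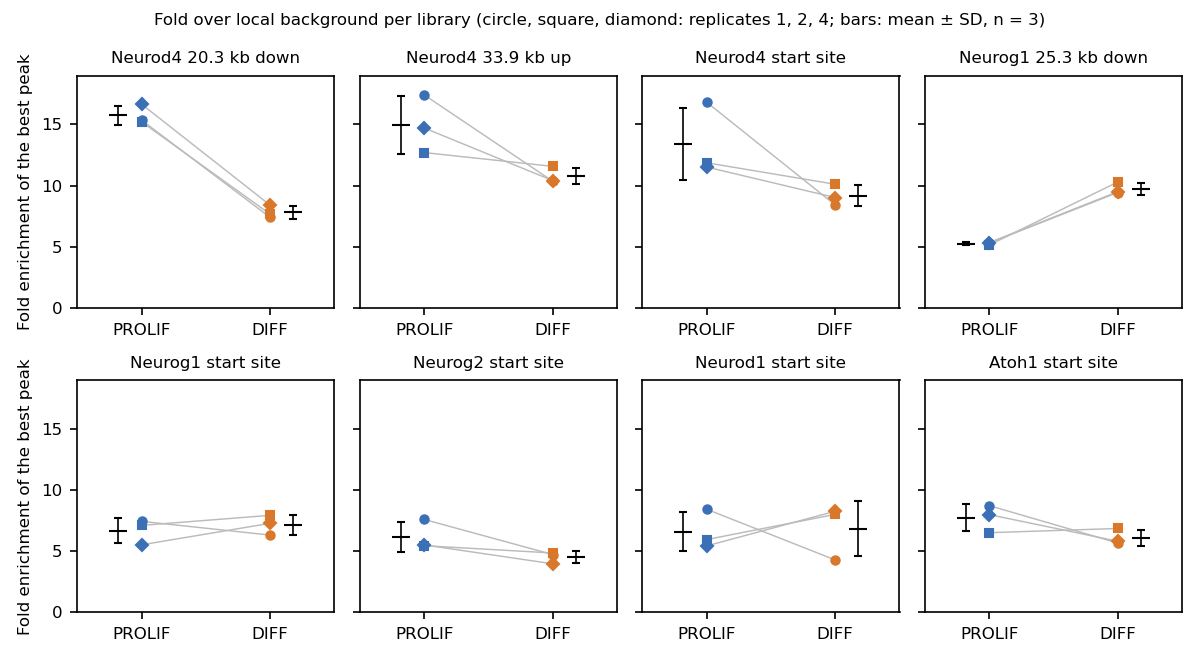
Fold enrichment of the best peak over local background (y axis) in each library for 8 regions, with circles, squares and diamonds for replicates 1, 2 and 4, grey lines joining equal replicate numbers, and bars for the mean ± SD of 3 libraries. The Neurod4 downstream region lies at 15.2 to 16.7 fold in PROLIF and 7.39 to 8.39 fold in DIFF, and the Neurog1 downstream region at 5.14 to 5.33 fold in PROLIF and 9.43 to 10.3 fold in DIFF.

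Neurog1 and Neurog2 encode neurogenins, which specify neuronal fate in progenitors. The Neurog1 gene (ENSMUSG00000048904.5) has 1 exon on the minus strand at chr13:56250478-56252163. Its start site lay in a region of 1813 bp (chr13:56251456-56253268) with a peak in all 6 libraries. The fold enrichment was 7.45, 7.11 and 5.53 in PROLIF replicates 1, 2 and 4 and 6.32, 7.94 and 7.28 in DIFF. Fold values overlapped between the states while scores did not, all DIFF scores being higher, but the score difference of 0.35 (SE 0.18, 95% interval -0.03 to 0.73) did not pass limma (adjusted p = 0.184).

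The firmest gain near any of the 7 genes lay 25328 bp downstream of the Neurog1 start site (chr13:56225902-56226835), in an intron of the long noncoding RNA gene 4930550C17Rik. Its fold enrichment was 5.30, 5.14 and 5.33 in PROLIF replicates 1, 2 and 4 and 9.43, 10.3 and 9.50 in DIFF. The percentiles rose from 50.4, 50.4 and 54.3 to 86.5, 85.5 and 89.1. The mean fold enrichment was 5.26 ± 0.105 in PROLIF and 9.74 ± 0.478 in DIFF (SD, n = 3), and the score rose by 1.40 (SE 0.20, limma adjusted p = 0.000137, with 1.30e-07 to 0.00194 over the 11 alternatives). The sequence around its summit and the 250 bases before the RefSeq start site of Neurog1 (minus strand) hold none of the E-boxes that the Neurod4 distal regions carry, and have no capitals for that reason.
Neurog1 downstream, chr13:56226203-56226403: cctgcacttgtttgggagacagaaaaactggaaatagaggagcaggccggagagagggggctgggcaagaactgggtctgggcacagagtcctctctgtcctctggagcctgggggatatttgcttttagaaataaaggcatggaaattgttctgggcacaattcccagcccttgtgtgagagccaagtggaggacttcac
Neurog1 promoter, chr13:56252181-56252430: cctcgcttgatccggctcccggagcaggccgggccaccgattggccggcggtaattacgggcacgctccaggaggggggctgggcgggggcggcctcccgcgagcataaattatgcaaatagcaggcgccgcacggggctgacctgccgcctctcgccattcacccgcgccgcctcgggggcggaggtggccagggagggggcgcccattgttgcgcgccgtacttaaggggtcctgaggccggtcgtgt

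Of the 3 DIFF-only regions, 2 were intergenic regions in the Neurog1 window. The one 37026 bp downstream (chr13:56214370-56215137) had 4.96, 3.79 and 4.06 fold in DIFF replicates 1, 2 and 4, and the one 6694 bp upstream (chr13:56258857-56259035) had 3.60, 2.99 and 2.55 fold, at percentiles of 47.5, 16.9 and 45.8 and of 22.1, 1.48 and 7.86. A region 17988 bp upstream, picked out after its values were seen, had a peak of 4.03 fold in PROLIF replicate 1 and of 7.77, 5.64 and 6.26 fold in DIFF. Not all Neurog1 regions moved this way. The intergenic region 35588 bp downstream (chr13:56216049-56216575) had 8.06, 7.03 and 5.80 fold in PROLIF and 3.45, 5.05 and 4.28 fold in DIFF. Its score was lower by limma (-0.94, SE 0.30, adjusted p = 0.0350), a call that was lost when any single library was left out (adjusted p up to 0.176 over the alternatives). The promoter of Cxcl14, a chemokine gene 43806 bp upstream, had percentiles of 86.5, 81.3 and 80.7 in PROLIF and 79.3, 73.3 and 72.0 in DIFF. It was just outside the threshold (difference -0.47, adjusted p = 0.0511) and passed with the replicate number as a block (adjusted p = 0.0239) and without DIFF replicate 1. The remaining shared regions, 27293 bp upstream and 29733 bp downstream, had differences of 0.49 (-0.05 to 1.03) and -0.26 (-0.81 to 0.30) and were not called.

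Neurog2 (ENSMUSG00000027967.8, plus strand, chr3:127633135-127635631) had a shared region on the start site and one inside the gene. On the start site (chr3:127632486-127633346) the fold enrichment was 7.60, 5.45 and 5.52 in PROLIF and 4.73, 4.86 and 3.97 in DIFF. The states did not overlap, and the score was lower in DIFF by limma (-0.77, SE 0.26, adjusted p = 0.0463). This call was lost without any 1 of the PROLIF libraries, DIFF replicate 2 or DIFF replicate 4 (adjusted p up to 0.192 over the alternatives). The region inside the gene (chr3:127633814-127634803) had 8.88, 8.31 and 7.48 fold in PROLIF and 6.71, 9.29 and 7.59 fold in DIFF, and was not called (-0.28, 95% interval -0.62 to 0.07). Between them a weak region had a peak in PROLIF replicates 2 and 4 alone, at 2.87 and 3.10 fold. The distal region 7264 bp upstream was shared and not called, at 7.43, 5.02 and 6.24 fold against 6.26, 6.06 and 6.42 fold (0.09, 95% interval -0.46 to 0.63).

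Atoh1 encodes a factor needed to make cerebellar granule neurons and inner ear hair cells. The gene (ENSMUSG00000073043.5) has 1 exon on the plus strand at chr6:64729125-64731245, and its start site lay in a region of 1547 bp with a peak in all 6 libraries (chr6:64728465-64730011). The fold enrichment was 8.74, 6.52 and 8.0 in PROLIF replicates 1, 2 and 4 and 5.67, 6.86 and 5.82 in DIFF. Fold values overlapped between the states, while percentiles of 81.4, 71.8 and 80.2 in PROLIF did not overlap those of 63.0, 66.1 and 68.8 in DIFF. The score was lower in DIFF (-0.60, SE 0.18, limma adjusted p = 0.0263), and the call was lost without PROLIF replicate 1, PROLIF replicate 4, DIFF replicate 1 or DIFF replicate 4 (adjusted p up to 0.363 over the alternatives). Away from the promoter, the shared region 5151 bp downstream of the start site, past the end of the gene (chr6:64734276-64735081), had 7.54, 5.11 and 5.04 fold in PROLIF and 5.66, 4.89 and 4.38 fold in DIFF. It was not called (-0.37, 95% interval -0.96 to 0.22).

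Neurod1, Neurod2 and Neurod6 encode factors of neuronal differentiation and maintenance. Neurod1 (ENSMUSG00000034701.9, minus strand, chr2:79452521-79456751) shares its start region with the gene Cerkl, so the peaks there cannot be given to one gene alone. The region on the start site (chr2:79456653-79457166) had 8.44, 5.96 and 5.43 fold in PROLIF replicates 1, 2 and 4 and 4.29, 8.01 and 8.27 fold in DIFF. A region inside the gene, 2179 bp downstream, had 8.45, 6.92 and 5.59 fold in PROLIF and 7.03, 6.26 and 6.73 fold in DIFF. In both regions the states overlapped, and the differences were 0.05 (95% interval -0.52 to 0.62) and 0.04 (-0.42 to 0.50). The 1 distal region, 42464 bp upstream, had peaks of 5.13 to 8.34 fold and lacked one in PROLIF replicate 2.

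Neurod2 and Neurod6 were the members without a steady promoter peak. Neurod6 (ENSMUSG00000037984.9, minus strand, chr6:55677822-55681263) had no promoter peak in any library, like 25.4% of protein-coding genes. At Neurod2 (ENSMUSG00000038255.6, minus strand, chr11:98325415-98329648) the single promoter peak was in PROLIF replicate 4, at 2.86 fold and percentile 0.702, near the bottom of that list. Promoters of other members also held minor regions, each seen in some libraries alone: 2376 bp upstream of Neurod1 (PROLIF replicate 1, 2.66 fold), 834 bp upstream of Atoh1 (PROLIF replicate 1, 2.65 fold) and 1706 bp upstream of Neurod4 (PROLIF replicates 2 and 4, 3.11 and 3.73 fold, and DIFF replicate 4, 3.42 fold). A missing peak means a signal under the threshold of the caller, not closed chromatin. Promoter peaks were present throughout at the other 5 members, as at 64.4% of protein-coding genes. No member had a promoter peak in all libraries of a single state, a pattern seen in 0.228% of protein-coding genes for PROLIF and 0.374% for DIFF.

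Distal regions were present at both genes all the same. The intergenic region 4084 bp downstream of the Neurod6 start site (chr6:55676432-55677179) had 10.5, 7.36 and 5.98 fold in PROLIF replicates 1, 2 and 4 and 4.96, 4.80 and 4.85 fold in DIFF. The score was lower in DIFF (-0.79, SE 0.25, limma adjusted p = 0.0357), a call lost without any 1 library other than PROLIF replicate 4 (adjusted p up to 0.148 over the alternatives). The shared region 36072 bp upstream was weak, at 3.38 to 6.29 fold, and not called (-0.06, 95% interval -0.92 to 0.81). Around Neurod2, an intergenic region 12888 bp upstream (chr11:98342536-98343003) had 4.12, 4.76 and 3.16 fold in PROLIF and 5.56, 7.52 and 4.46 fold in DIFF. Folds overlapped, scores did not, and the score was higher in DIFF (1.14, SE 0.34, limma adjusted p = 0.0251). Leaving out PROLIF replicate 1, PROLIF replicate 4, DIFF replicate 1 or DIFF replicate 2 ended this call (adjusted p up to 0.117 over the alternatives), and the region is nearer to Ppp1r1b (5401 bp) than to Neurod2.

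Much of the Neurod2 window belongs to its neighbours Cdk12, Ppp1r1b and Stard3. A region in an intron of Stard3, 31110 bp upstream of Neurod2 (chr11:98360758-98361517), had 7.96, 7.11 and 6.62 fold in PROLIF and 4.20, 4.81 and 4.80 fold in DIFF. It lies 2314 bp from a start site of Stard3, and so counts as a promoter region of that gene by the 3 kb rule. This region was lower in DIFF (-0.72, SE 0.21, limma adjusted p = 0.0235), and the call was lost without any 1 library other than PROLIF replicate 1 (adjusted p up to 0.0713 over the alternatives). The third DIFF-only region, in an intron of Ppp1r1b (chr11:98355859-98355976) and 1263 bp from a start site of that gene, had 2.44, 3.89 and 2.92 fold in the DIFF lists. The region 34668 bp downstream was the highest-ranked shared distal region of this window, at 5.43, 8.27 and 4.55 fold in PROLIF and 5.47, 7.06 and 6.49 fold in DIFF, and was not called (0.40, 95% interval -0.23 to 1.03). The start regions of Ppp1r1b and Stard3 differed by 0.21 (-0.63 to 1.05) and 0.64 (0.01 to 1.27, adjusted p = 0.142), and neither passed.

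The promoters of the 7 genes differ in base composition, which the choice of genes did not use. All 7 matched the RefSeq promoter table (GRCm38.p6), which gives the 250 bases before and 50 bases after each start. The ratio of observed to expected CpG was 0.891 for Neurog1, 0.840 for Atoh1, 0.837 for Neurod1, 0.697 for Neurod2, 0.570 for Neurog2 and 0.192 for Neurod6, beside a median of 0.576 over 17492 protein-coding promoters. For Neurod4 it was 0.197 and 0.318 at its pair of RefSeq starts. The gene with no promoter peak, Neurod6, and the gene with the highest-ranked one in PROLIF, Neurod4, thus both had CpG-poor promoters. An E-box of either kind was present in the promoters of Neurod2 and of the downstream Neurod4 start and in 27.7% of all promoters.

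In the 68 regions, short motifs were looked for within 100 bases of the summit, on either strand. CAGATG was found in 17 regions (25.0%, exact Clopper-Pearson 95% interval 15.3% to 37.0%, for counting error only), beside 17.3% of all regions of the genome. CAGCTG was found in 12 (17.6%, 9.46% to 28.8%) beside 19.6%. The AP-1 motif TGACTCA, or its reverse complement, was found in 6 regions (8.82%, 3.31% to 18.2%) beside 5.76%. The SOX motif letters ACAAAG or ACAATG were found in 17 (25.0%, 15.3% to 37.0%) beside 29.1%, and the NFI motif TTGGCA in 13 (19.1%, 10.6% to 30.5%) beside 18.3%. Each interval held the share of all regions.

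The partners, relatives, antagonists and targets of proneural factors were read at their promoters. The percentile of a gene is that of its best promoter peak in each library, and its score is that of its highest-ranked shared promoter region. Over all protein-coding genes, 64.4% had a promoter peak in all 6 libraries, the share to set beside the counts below. Among genes with a shared promoter region, 9.96% were higher and 4.07% lower in DIFF. All 3 E proteins, the dimer partners, had a promoter peak in all 6 libraries, with the score of Tcf3 higher in DIFF (0.64, SE 0.12, limma adjusted p = 0.00105), that of Tcf12 lower (-0.67, SE 0.17, adjusted p = 0.0110) and that of Tcf4 not called (-0.02). The Tcf12 call is for a single region (chr9:71897337-71897732). The best promoter peak of that gene overlapped between the states, at percentiles 81.6, 78.1 and 73.3 in PROLIF and 76.8, 72.2 and 85.8 in DIFF. Of 14 other proneural-type bHLH genes 8 had a peak in all libraries, 4 in some and 2, Neurog3 and Nhlh1, in none. Of those 8, Atoh8 was higher (percentiles 46.2, 58.9 and 6.80 in PROLIF and 73.2, 73.3 and 75.4 in DIFF, difference 1.31, adjusted p = 0.0147) and Tal1, a blood and midbrain factor, was lower (-1.20, adjusted p = 0.0325).

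All 9 repressors and antagonists (Hes1, Hes5, Hey1, Hey2, Id1 to Id4 and Rest) had promoter peaks in all 6 libraries, and none was called by limma. Hes1, an effector of Notch that represses proneural genes, came nearest, at percentiles 89.2, 86.6 and 70.9 in PROLIF and 76.3, 68.3 and 80.2 in DIFF (-0.51, adjusted p = 0.0522). Of 16 genes known as targets of the neurogenins and NeuroD factors, 13 had a promoter peak in all 6 libraries, Stmn2 in some, and Dcx and Nhlh1 in none. Of the 12 that could be tested none was called. The Notch ligand Dll1 differed by 0.12 (adjusted p = 0.616), its relative Dll3 by 0.49 (adjusted p = 0.0544) and Hes6, an antagonist of HES1, by -0.25 (adjusted p = 0.236).

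Some genes elsewhere in the genome had promoter percentiles close to those of a member over the 6 libraries, by Euclidean distance in percentile units. Nearest to Neurod4 were Kcnj16 (distance 3.57) and Ttc39a (4.66), and to Neurog1 Gtf2f2 (4.38) and Runx2 (4.52). For Neurog2 they were Cacng8 (3.73) and Apex2 (4.58), for Neurod1 Rai1 (4.50) and Rbpms (4.84), and for Atoh1 Slc1a5 (6.54) and Filip1 (8.44). Neurod2, with its single weak peak, tied with genes holding the same value, and Neurod6 had no peak to compare. Likeness over 6 libraries is a description and carries no test.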

How the data were processed

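Peak lists of 6 ATAC-seq libraries were analysed, grouped by state and replicate number from the labels. After adapter clipping (Cutadapt) and quality trimming (Trimmomatic), the authors aligned read pairs to GRCm38 (mm10) using Bowtie2 and marked duplicates using Picard. Narrow peaks were called by MACS2 in each library separately (FDR 0.05, no model). Tool versions, fragment extension, transposase offset and blacklisting are not given in the sources used here. Peak edges and numbers depend on them. The deposited score equals 10 times the −log10 q rounded down, except at 1 to 8 peaks per list, and the deposited fold is a ratio of pileup to the local background. The −log10 p deposited for each peak was used to rank peaks within its list. Read totals were not used, and background pileup was solved from fold and p (percentile 1 of each library).

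Start sites came from GENCODE M21 (GRCm38) and sequences from RefSeq GRCm38.p6. Regions with a peak in all 6 libraries were tested with limma 3.58.1 (moderated test with trend, R 4.3.3) on normal scores, with Benjamini-Hochberg adjustment over all 40102. On simulated data for this comparison with 40102 regions, 88.0% of 100 regions with a large planted change (1.5 on the natural log of the −log10 p) were recovered. Of 100 with a small one 8.00% were recovered, and 4 calls were false. Far fewer regions were changed there than were called in these data (3930 higher and 4483 lower). The simulated noise was also independent between libraries, without pairing, and had the same spread at every region. The adjustment is stricter when few regions change. For these reasons the rates need not hold here, and small differences may still be missed. Peak numbers were compared by two-sided exact permutation. Every region at a member promoter, each state-only region, each called region and the highest-ranked shared distal region of each member were described singly. Of these and of the listed genes, some are not reported here. The members, lists and rules were chosen with earlier results of these data known. Deviations from the state means correlated at 0.142, 0.154 and 0.126 between same-numbered libraries and at -0.106 to -0.0331 between different numbers. Deviations from a mean of 3 libraries cancel within a state, so positive values for equal numbers push the others below them. The negative values therefore add no support. On the ground of the positive values alone, the numbers were taken to pair the libraries. The main limma fit and the permutation tests of the Results were unpaired, and the pairing entered only as the replicate block. Over all shared regions that block gave 5381 higher and 5518 lower, beside 3930 and 4483 without it. Peak calls with q of at most 0.01, lists of equal length, windows of 10 or 100 kb, regions nearest to a member, a cover of 50%, ranking by fold enrichment, promoters of 1 kb, summit windows of 50 bases, each library left out and the replicate block were tried. Leaving out both libraries of replicate 1 for the calls was chosen after seeing the data. Analyses used Python 3.11.15, pandas 2.3.3, scipy 1.17.1 and pysam 0.24.0.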

Additional observations from a re-analysis of the deposited data

How the results depend on the processing

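The number of members with a promoter peak in all 6 libraries (5) was the same under every alternative run, and that of related and target genes stayed between 32 and 35. The calls at the Neurog1 downstream region and at 3 Neurod4 regions held in all 11 alternative fits. With the replicate number as a block, 2 regions were higher and 9 lower, the added one being the Cxcl14 promoter, and no other call changed. By the block, 5 regions were PROLIF-only and 5 DIFF-only when a difference in 2 of 3 pairs sufficed, and the exact p of the total of peaks was 1.

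With each library left out in turn, higher regions ranged from 1 to 2, lower regions from 3 to 5, PROLIF-only regions from 1 to 2 and the difference in peaks over the 7 windows from -1.67 to 4.17. That difference was -1.33 with lists of equal length, -2.67 with 10 kb windows and -1 with regions nearest to a member, against 1 as reported. With 10 kb windows, 11 regions were shared, 0 higher, 5 lower and 1 DIFF-only. With regions nearest to a member 16 were shared, 1 was higher and 1 DIFF-only. With 100 kb windows 3 were PROLIF-only and 5 DIFF-only. A cover of 50% left 13 shared and 0 PROLIF-only regions, and equal lengths left 0 PROLIF-only. Ranking by fold enrichment left 1 higher. Leaving out both libraries of replicate 1 left 1 higher and 3 lower.

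Some differences in single windows and in uncalled regions changed sign, and the cause was not tested. With 1 library left out at a time, the window difference ran from -0.17 to 0.83 for Neurod1 and from -0.83 to 0.17 for Neurod6. With 10 kb windows it was -0.33 for Neurod1, -0.67 for Neurod2 and 0.67 for Neurod6, and by nearest gene -0.33 for Neurod2. Scores with 1 library left out ran from -0.10 to 0.21 at the Neurog2 upstream region, -0.084 to 0.17 inside Neurod1, -0.15 to 0.38 on the Neurod1 start site, -0.19 to 0.52 on the Ppp1r1b start site, -0.30 to 0.078 at the Neurod4 region 13167 bp upstream and -0.44 to 0.18 at the weak Neurod6 upstream region. Without both libraries of replicate 1 the last 2 were 0.10 and 0.31. The lists hold called peaks alone, so sites under the threshold and changes in absolute accessibility cannot be measured.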
